A study of Homo sapiens with 4 samples.

Results

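The genes examined here encode the subunits of RNA polymerases I, II and III, and they were followed in Kasumi-1, an established acute myeloid leukemia cell line that carries a RUNX1-RUNX1T1 fusion. Members were the rows of the expression table whose gene symbol names a POLR1, POLR2 or POLR3 gene and whose level reached 1 TPM (a read level divided by transcript length and then by the total of the sample) in at least 2 of 4 samples. All 34 such symbols in the table passed this limit, among 16817 genes tested and 18567 listed. They comprised 6 genes particular to polymerase I, 7 to polymerase II and 10 to polymerase III, 2 shared by polymerases I and III, 5 shared by all of them, and 4 that are a polymerase II associated factor or copies of POLR2J. CRCP, another polymerase III subunit, has another kind of symbol and is not a member.

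The groups were NC, with 2 samples whose labels state no treatment and no short hairpin RNA, and sh-ANP32B, with 2 samples in which ANP32B was knocked down by a hairpin. A control hairpin, lentiviral infection and puromycin appear in the study's methods, so what the NC cells carried is uncertain. If they carried nothing, infection and selection cannot be told apart from the knockdown. Which hairpin was used is not given either. Nothing states whether the samples were separate cultures, so p-values measure the spread between these samples, which may be technical, and all of the cells come from a single line.

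ANP32B had 383.8 and 392.0 TPM in NC against 51.8 and 41.2 TPM in sh-ANP32B, as its label requires. Of 10 marker genes of Kasumi-1 myeloblasts 8 were in the table. RUNX1T1 had 15.6 to 17.6 TPM in NC and 26.8 to 31.2 TPM in sh-ANP32B, and KIT had only 1.55 to 3.41 TPM over all samples. The 8 markers summed to between 1699 and 1794 TPM in NC and between 1688 and 1911 TPM in sh-ANP32B, but moved apart. PRTN3 had 929.4 and 881.8 TPM in NC against 569.0 and 683.3 TPM in sh-ANP32B, whereas ELANE, AZU1 and ANPEP were higher in both sh-ANP32B samples, ELANE with 315.9 and 292.4 TPM against 433.2 and 504.5 TPM. The part of these differences in the results below was not tested. Of 16 markers of T, B, erythroid, fibroblast and epithelial cells 3 were in the table, of which the B cell pair summed to at most 8.14 TPM and PDGFRB, for fibroblasts, reached at most 1.56 TPM. Markers without a row, CD34 and MPO among them, were not analysed here.

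RNA polymerase I transcribes the large ribosomal RNA precursor in the nucleolus, polymerase II the messenger RNAs, and polymerase III the transfer RNAs, 5S ribosomal RNA and other short RNAs. Each enzyme has a pair of large subunits that form the active center, a platform on which they assemble, a stalk, and smaller peripheral subunits, and several small subunits are built into every one of them. The output of polymerases I and III sets how many ribosomes and transfer RNAs a growing cell can make, and MYC is known to raise both. In these samples MYC had 130.8 and 143.8 TPM in NC against 56.7 and 63.2 TPM in sh-ANP32B (log2 fold change -1.18, limma adjusted p 0.0261).

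RefSeq promoter windows (GRCh38.p14, 250 bases before to 50 after a start) were found for 24 of the 34 genes, as 30 windows. Those of 4 genes hold the E-box CACGTG, the letters that MYC and MAX are known to bind, and they are shown because the level of MYC differed between the groups. The E-box is in capitals, and the windows run 5′ to 3′ along the strand of the gene. They lie at chr19:45406394-45406693 on the plus strand (POLR1G), chr10:78029466-78029765 on the minus strand (POLR3A), chr1:145823950-145824249 on the plus strand (POLR3C) and chr16:22297159-22297458 on the plus strand (POLR3E).
POLR1G: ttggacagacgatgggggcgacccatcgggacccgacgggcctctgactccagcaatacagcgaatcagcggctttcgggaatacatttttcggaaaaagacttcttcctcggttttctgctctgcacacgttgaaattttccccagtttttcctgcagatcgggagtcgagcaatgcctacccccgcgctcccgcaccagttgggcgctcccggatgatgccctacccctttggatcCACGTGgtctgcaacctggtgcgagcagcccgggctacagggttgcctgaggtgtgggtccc
POLR3A: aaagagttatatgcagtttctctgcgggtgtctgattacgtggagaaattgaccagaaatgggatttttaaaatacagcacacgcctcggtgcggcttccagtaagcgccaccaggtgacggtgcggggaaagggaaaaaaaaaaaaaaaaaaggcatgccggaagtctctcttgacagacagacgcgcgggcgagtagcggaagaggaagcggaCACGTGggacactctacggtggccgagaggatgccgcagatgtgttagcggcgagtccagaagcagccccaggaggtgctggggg
POLR3C: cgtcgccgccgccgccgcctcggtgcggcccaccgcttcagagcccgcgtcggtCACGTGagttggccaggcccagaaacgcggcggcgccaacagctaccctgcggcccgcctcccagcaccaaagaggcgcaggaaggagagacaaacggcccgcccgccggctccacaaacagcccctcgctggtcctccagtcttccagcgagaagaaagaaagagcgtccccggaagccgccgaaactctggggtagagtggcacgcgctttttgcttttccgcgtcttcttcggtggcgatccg
POLR3E: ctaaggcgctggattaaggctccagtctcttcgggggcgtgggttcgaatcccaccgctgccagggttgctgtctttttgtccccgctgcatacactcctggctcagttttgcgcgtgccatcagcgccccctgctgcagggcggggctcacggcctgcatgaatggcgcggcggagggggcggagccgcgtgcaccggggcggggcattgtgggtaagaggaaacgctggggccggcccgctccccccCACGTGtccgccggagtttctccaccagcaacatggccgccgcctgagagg

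All motifs were searched on both strands, and CACGTG reads alike on both. Counted from the start, the first base of the E-box lies at -12 in POLR1G, -35 in POLR3A, -196 in POLR3C and -1 in POLR3E, where the E-box spans the start itself. These are 4 of 30 member windows (13.3%), against 7.26% of all 35116 windows of the same length. The ETS core CCGGAAG, read on both strands, was in 11 of 30 (36.7%) against 10.3% of all windows, and the NRF1 core GCATGCGC in 5 (16.7%) against 3.05%. The CCAAT box, by the letters CCAAT on either strand, was in 6 of 30 (20.0%) against 34.6%, and TATAAA was in 1 (3.33%), that of POLR2M, against 11.5%. ETS and E-box letters occur together in the windows of POLR3A and POLR3C, and some genes have a pair of windows, so windows are not independent. A match describes the letters only. No window was at hand for 10 genes, POLR1E, POLR2K and POLR3G among them.

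Knockdown of ANP32B was compared with NC by limma on log2(TPM + 1), with p-values adjusted over all genes tested. None of the 34 subunit genes passed an adjusted p of 0.05, where 1.18% of all genes passed as lower and 2.14% as higher. The lowest adjusted p was 0.0625, that of POLR1E. At an unadjusted p under 0.05, 10 of 34 genes were lower (29.4%, against 8.72% of all genes) and 1 was higher (POLR3D, against 15% of all genes). Both sh-ANP32B values lay below both NC values in 15 of 34 genes (44.1%, against 21.4% of all genes) and above them in 2, POLR3D and POLR2J4 (against 33.2% of all genes). The fold change was negative in 28 of 34 genes and their median was -0.17, whereas the median of all genes was 0.08. The test is limma's on 2 samples a group. On simulated data with few changed genes this test recovered 3.7% of 2-fold changes at an adjusted p under 0.05, which need not hold for the real samples. Without sh-ANP32B replicate 1 it called 8 of the genes lower and 1 higher, and without sh-ANP32B replicate 2 it called 9 and 1, while it called 24.3% and 20.7% of all genes in those fits, in which the spread comes from the NC samples alone.

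**Figure D1:**
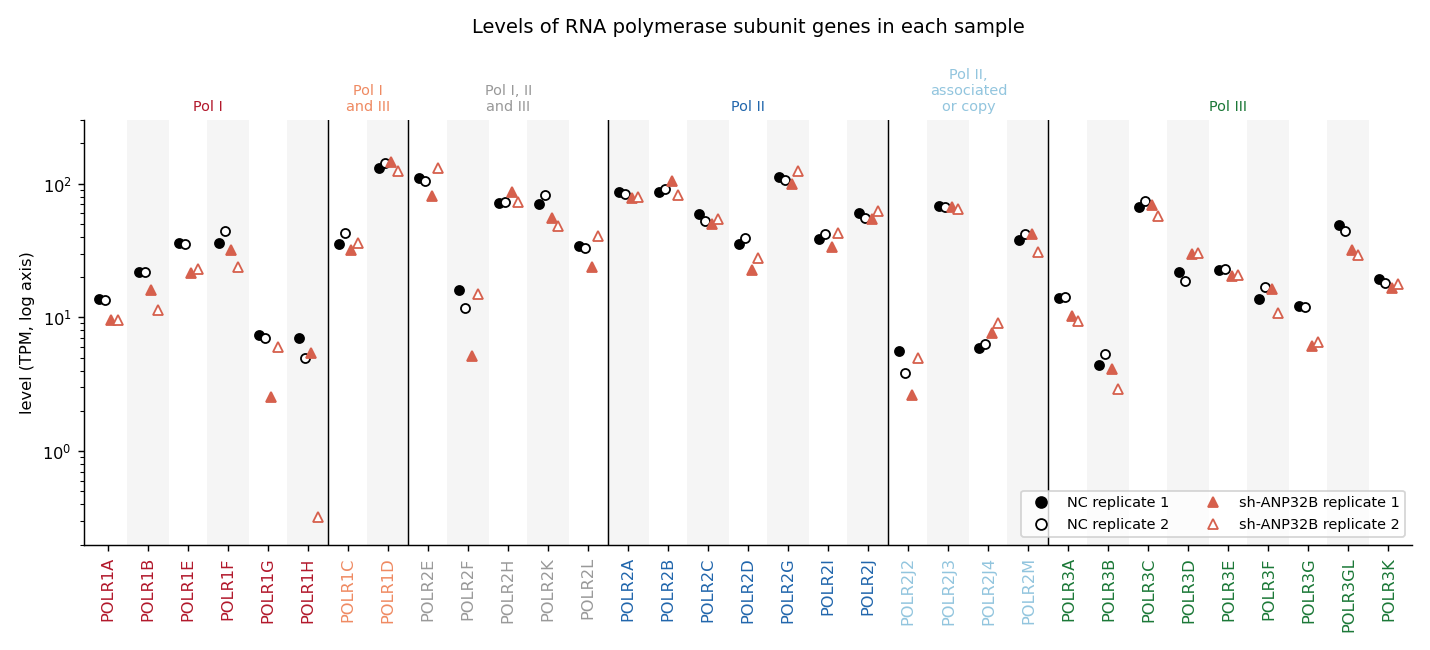
Level of the subunit genes described here in TPM on a log axis, with circles for NC and triangles for sh-ANP32B, filled for replicate 1 and open for replicate 2. The genes particular to polymerase II lie higher than most of those of polymerases I and III, and POLR1H stands at 0.322 TPM in sh-ANP32B replicate 2.

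The levels of the genes, which TPM makes comparable by length, spanned from 4.70 TPM (POLR2J2) to 136.1 TPM (POLR1D) in the NC means. The genes of polymerase II had a median of 57.9 TPM in NC, those of polymerase I 17.7 TPM, those of polymerase III 17.0 TPM and the shared ones 72.6 TPM. The same 4 genes, POLR1D, POLR2G, POLR2E and POLR2B, were highest in both groups and in the same order. The neighbours in that order did not differ beyond their spread in sh-ANP32B, where POLR2G had 111.7 ± 16.8 TPM, POLR2E 105.2 ± 34.8 TPM and POLR2B 93.8 ± 16.1 TPM (SD, n = 2). At the bottom, POLR3B, with 4.42 and 5.31 TPM in NC, was the lowest of the genes whose product is a core subunit.

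The large catalytic subunits were examined first, since each active center is made of such a pair. POLR1A, the largest subunit of polymerase I, on chromosome 2 from 86020216 to 86106155 (minus strand, hg38, GENCODE v44), had 13.6 and 13.5 TPM in NC against 9.60 and 9.60 TPM in sh-ANP32B. Both knockdown samples were below both NC samples, at 70.7% of the NC mean (log2 fold change -0.46, SE 0.181, limma adjusted p 0.190). POLR1B, its partner, on chromosome 2 from 112541915 to 112579818 (plus strand), had 21.9 and 21.9 TPM in NC against 16.1 and 11.3 TPM in sh-ANP32B. The groups did not overlap, and the knockdown samples differed from each other more than the NC samples did (log2 fold change -0.66, SE 0.210, limma adjusted p 0.126).

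POLR2A, the largest subunit of polymerase II, whose tail of repeats is phosphorylated during transcription, lies on chromosome 17 from 7484366 to 7514616 (plus strand). It had 86.5 and 83.1 TPM in NC against 77.9 and 79.8 TPM in sh-ANP32B. The groups did not overlap, but the log2 fold change of -0.10 had a 95% interval from -0.41 to 0.20 (limma adjusted p 0.677). POLR2B, the partner of POLR2A, had 86.8 and 91.6 TPM in NC against 105.2 and 82.4 TPM in sh-ANP32B, so the groups overlapped, with a log2 fold change of 0.06 (95% interval -0.32 to 0.44).

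POLR3A, the largest subunit of polymerase III, on chromosome 10 from 77953148 to 78029522 (minus strand), had 13.9 and 14.1 TPM in NC against 10.3 and 9.35 TPM in sh-ANP32B. Both knockdown samples lay below both NC samples (log2 fold change -0.47, SE 0.184, limma adjusted p 0.186). POLR3B, the other catalytic subunit, had 4.42 and 5.31 TPM in NC against 4.11 and 2.92 TPM in sh-ANP32B, also without overlap (log2 fold change -0.39, 95% interval -1.02 to 0.25, limma adjusted p 0.426).

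Ratios within a sample do not depend on how samples are scaled, although GC content can still touch them. POLR1A stood to POLR2A at 0.158 and 0.163 in NC and at 0.123 and 0.120 in sh-ANP32B. POLR3A stood to POLR2A at 0.161 and 0.169 in NC and at 0.132 and 0.117 in sh-ANP32B. POLR1B stood to POLR2B at 0.252 and 0.239 in NC and at 0.153 and 0.137 in sh-ANP32B, and POLR3B to POLR2B at 0.0510 and 0.0580 and at 0.0391 and 0.0355. In all 4 ratios the groups did not overlap, so the catalytic genes of polymerases I and III were lower relative to those of polymerase II in both knockdown samples. Each had an exact permutation p of 0.33 (two-sided), the smallest that 2 samples against 2 can give. Within a polymerase no such separation was seen, as POLR1A per POLR1B was 0.623 and 0.619 in NC and 0.598 and 0.851 in sh-ANP32B (exact permutation p 1).

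Among the other genes particular to polymerase I, POLR1E, a subunit of its peripheral heterodimer, gave the strongest test of all members. It lies on chromosome 9 from 37485948 to 37503697 (plus strand) and had 36.3 and 35.7 TPM in NC against 21.5 and 22.9 TPM in sh-ANP32B. The replicates were close in each group, and the knockdown samples stood at 61.7% of NC (log2 fold change -0.67, SE 0.151, unadjusted p 0.00330, limma adjusted p 0.0625). POLR1G, its partner in that heterodimer, had 7.33 and 7.04 TPM in NC against 2.53 and 5.99 TPM in sh-ANP32B. The groups did not overlap, but sh-ANP32B replicate 1 was far below replicate 2 (log2 fold change -0.72, 95% interval -1.55 to 0.11, limma adjusted p 0.267), and without replicate 1 the fold change was -0.23. POLR1G overlaps ERCC1 on the opposite strand, which had 52.1 and 48.5 TPM in NC against 69.9 and 94.8 TPM in sh-ANP32B. Whether the values were made with regard to strand is not given in the sources used here, so reads of such overlapping pairs could not be told apart.

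POLR1F, the stalk subunit through which polymerase I meets its initiation factor RRN3, had 36.2 and 44.5 TPM in NC against 31.9 and 23.9 TPM in sh-ANP32B, without overlap (log2 fold change -0.53, SE 0.198, limma adjusted p 0.176). POLR1H, which takes part in cleavage of the nascent RNA, had 7.03 and 4.98 TPM in NC, while sh-ANP32B replicate 1 had 5.42 TPM and replicate 2 had 0.322 TPM. This was the lowest fold change of all members, -1.25 on the log2 scale, but the groups overlapped and it came from replicate 2, without which it was -0.11 (limma adjusted p 0.319 with all samples). All 6 genes of polymerase I had a negative fold change (against 42.1% of all genes), 5 were lower without overlap between groups (against 21.4%) and 4 had an unadjusted p under 0.05 (against 8.72%).

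The platform subunits POLR1C and POLR1D, which polymerases I and III share, differed less. POLR1C had 35.4 and 42.8 TPM in NC against 31.98 and 36.0 TPM in sh-ANP32B, with overlap (log2 fold change -0.19, 95% interval -0.59 to 0.21). POLR1D had 130.5 and 141.7 TPM in NC against 145.8 and 123.6 TPM in sh-ANP32B, with overlap as well (log2 fold change -0.02, 95% interval -0.36 to 0.32).

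Of the 5 small subunits common to all polymerases only POLR2K, which binds zinc in the assembly platform, had groups without overlap. It had 70.8 and 81.5 TPM in NC against 55.4 and 48.3 TPM in sh-ANP32B (log2 fold change -0.55, SE 0.152, limma adjusted p 0.0975). POLR2F had 16.0 and 11.7 TPM in NC against 5.16 and 14.8 TPM in sh-ANP32B. Its log2 fold change of -0.58 was the lowest of the shared genes but turned to 0.11 without sh-ANP32B replicate 1 (limma adjusted p 0.467 with all samples). POLR2H had 72.0 and 73.3 TPM in NC against 85.9 and 72.5 TPM in sh-ANP32B, with overlap and the highest fold change of these genes, 0.12 (95% interval -0.23 to 0.46). POLR2E and POLR2L had sh-ANP32B replicates on either side of NC. POLR2E had 110.5 and 104.6 TPM in NC against 80.6 and 129.8 TPM in sh-ANP32B, and POLR2L had 34.5 and 33.1 TPM in NC against 23.7 and 40.4 TPM in sh-ANP32B. Genes on the opposite strand overlap both of these, ARHGAP45 with a log2 fold change of 0.62 and CD151 with 0.53.

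Among the genes particular to polymerase II, POLR2D was the only gene with an unadjusted p under 0.05. POLR2D, a stalk subunit, on chromosome 2 from 127843553 to 127858155 (minus strand), had 35.6 and 39.0 TPM in NC against 22.5 and 27.7 TPM in sh-ANP32B. The groups did not overlap, at -0.56 on the log2 scale (SE 0.170, limma adjusted p 0.117). Its partner in the stalk, POLR2G, had 113.0 and 107.3 TPM in NC against 99.9 and 123.6 TPM in sh-ANP32B, with overlap and a log2 fold change of 0.01 (95% interval -0.35 to 0.37). POLR2C and POLR2J, which form the platform, had log2 fold changes of -0.09 and 0.01, and POLR2I, which acts in RNA cleavage and fidelity, had -0.09, all with overlapping groups. In these 3 genes the widest 95% interval ran from -0.49 to 0.32 (POLR2I). RPS26P19, a processed pseudogene, overlaps POLR2D on the same strand. It had 9.71 and 4.603 TPM in NC against 5.402 and 1.34 TPM in sh-ANP32B. Its groups overlapped, with a log2 fold change of -1.001. The part of its reads in the values of POLR2D was not tested.

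The copies of POLR2J on chromosome 7 can share reads with it, so each value is uncertain. POLR2J had 60.8 and 54.9 TPM in NC against 54.2 and 62.7 TPM in sh-ANP32B. POLR2J3 had 68.5 and 66.4 TPM and 66.8 and 64.5 TPM, and POLR2J2 had 5.60 and 3.81 TPM and 2.63 and 4.99 TPM. Summed over these copies the level was 134.9 and 125.2 TPM in NC against 123.6 and 132.2 TPM in sh-ANP32B, with overlap, and POLR2J made up between 43.9% and 47.4% of the sum in every sample. Another protein-coding gene overlaps POLR2J2 on the same strand and is not in this sum. It had 23.7 and 29.4 TPM in NC against 39.2 and 38.5 TPM in sh-ANP32B. POLR2J4, annotated as a noncoding copy, had 5.86 and 6.32 TPM in NC against 7.63 and 9.05 TPM in sh-ANP32B, above NC without overlap (log2 fold change 0.40, limma adjusted p 0.317). POLR2M, a factor that binds polymerase II, had 38.2 and 42.2 TPM in NC against 42.0 and 30.8 TPM in sh-ANP32B, with overlap (log2 fold change -0.15).

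The genes particular to polymerase III had log2 fold changes from -0.84 to 0.55. POLR3G and POLR3GL encode alternative forms of a subunit in the heterotrimer that acts in initiation, POLR3G being known from undifferentiated and transformed cells. POLR3G, on chromosome 5 from 90471748 to 90514557 (plus strand), had 12.2 and 11.9 TPM in NC against 6.09 and 6.55 TPM in sh-ANP32B. POLR3GL, on chromosome 1 from 145964690 to 145978848 (plus strand), had 49.0 and 44.3 TPM in NC against 31.9 and 29.1 TPM in sh-ANP32B. Both were lower without overlap, POLR3G at 52.4% of NC (log2 fold change -0.84, SE 0.195, limma adjusted p 0.0692) and POLR3GL at 65.3% (log2 fold change -0.60, SE 0.151, limma adjusted p 0.0794). POLR3G made up 19.9% and 21.2% of the sum of both in NC and 16.0% and 18.4% in sh-ANP32B. These shares were 20.6% ± 0.889 and 17.2% ± 1.67 (SD, n = 2), without overlap, with an exact permutation p of 0.33, the smallest possible. MBLAC2, a protein-coding gene, overlaps POLR3G on the opposite strand. It had 9.313 and 10.99 TPM in NC against 6.777 and 7.998 TPM in sh-ANP32B (log2 fold change -0.41). The part of its reads in the values and the share of POLR3G was not tested.

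The other genes of that heterotrimer, POLR3C and POLR3F, had overlapping groups. POLR3C had 66.4 and 73.7 TPM in NC against 69.3 and 56.9 TPM in sh-ANP32B (log2 fold change -0.15), and POLR3F had 13.7 and 16.9 TPM and 16.3 and 10.7 TPM (log2 fold change -0.19). POLR3D and POLR3E form a heterodimer that acts in initiation and termination, and their fold changes had opposite signs. POLR3D had 21.7 and 18.7 TPM in NC against 29.7 and 30.1 TPM in sh-ANP32B, the highest fold change of all members (0.55, SE 0.163, limma adjusted p 0.111). PIWIL2-DT, a noncoding gene that overlaps POLR3D on the opposite strand, had 4.03 and 4.14 TPM in NC against 7.97 and 11.5 TPM in sh-ANP32B. POLR3E had 22.7 and 22.9 TPM in NC against 20.3 and 20.6 TPM in sh-ANP32B, without overlap (log2 fold change -0.15, 95% interval -0.53 to 0.23). POLR3K, which takes part in RNA cleavage and termination, had 19.4 and 18.1 TPM in NC against 16.5 and 17.7 TPM in sh-ANP32B, likewise (log2 fold change -0.13).

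**Figure D2:**
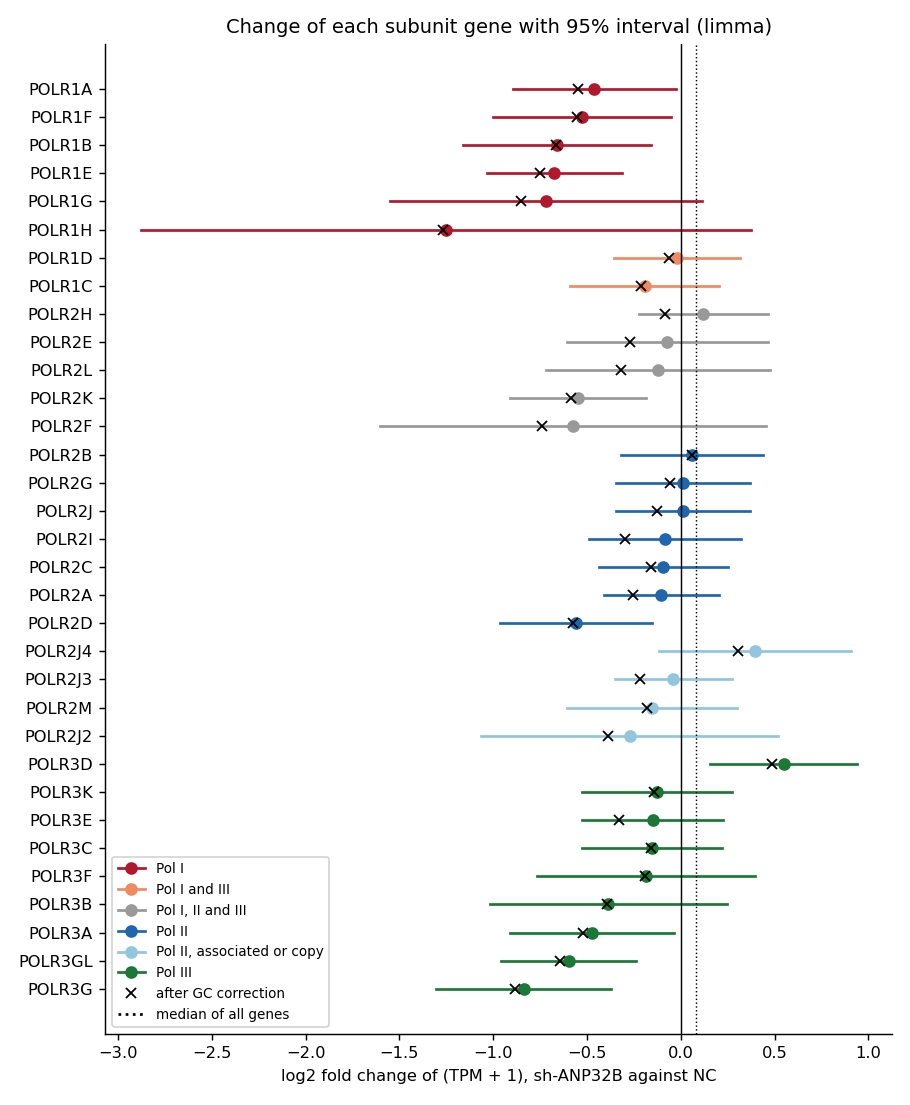
Log2 fold change of (TPM + 1), sh-ANP32B against NC, for the subunit genes described here, with the 95% interval from limma as a bar, the value after GC correction as a cross and the median of all genes as a dotted line. All 6 polymerase I genes lie left of 0, POLR3D alone among polymerase III genes lies right of it, and 10 of the intervals shown exclude 0 before adjustment over all genes.

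When the polymerases were compared, the median log2 fold change was -0.67 for polymerase I, -0.09 for polymerase II, -0.29 for polymerase III and -0.12 for the 7 shared genes. Groups did not overlap, with sh-ANP32B lower, in 5 of 6, 2 of 7, 7 of 10 and 1 of 7 of these genes (83.3%, 28.6%, 70.0% and 14.3%, against 21.4% of all genes), so the counts of polymerase II and of the shared genes were near that of all genes. Without POLR3G and POLR3GL the median of polymerase III was -0.17. The summed level of the polymerase I genes was 122.4 and 127.6 TPM in NC against 86.9 and 74.0 TPM in sh-ANP32B, that of polymerase II was 480.5 and 471.0 TPM against 443.7 and 473.5 TPM, and that of polymerase III was 238.7 and 237.8 TPM against 213.2 and 191.9 TPM. The shared genes summed to 469.6 and 488.9 TPM against 428.7 and 465.4 TPM. These sums were lower without overlap in sh-ANP32B except that of polymerase II, and those of the shared genes differed by less between groups than between the sh-ANP32B replicates. The genes of polymerase I summed to 25.5% and 27.1% of those of polymerase II in NC, and to 19.6% and 15.6% in sh-ANP32B.

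The contrast was then taken in each of the 4 pairs of a sh-ANP32B and an NC sample. The median difference of the polymerase I genes lay below that of the polymerase II genes in every pair, with gaps of -0.27, -0.37, -0.54 and -0.76 on the log2 scale. The gap between the medians of polymerases I and II was 0.04 between the NC replicates but -0.41 between the sh-ANP32B replicates, so it was within the spread of the knockdown samples for the pairs with replicate 1. After GC correction the gaps were -0.33, -0.41, -0.47 and -0.64, with -0.085 between the sh-ANP32B replicates, so every pair lay beyond that spread. The correction was fitted on these samples and itself removes GC differences between replicates, so this spread is not an independent measure. In the shared genes the median difference between the sh-ANP32B replicates was 0.17 before correction and 0.29 after it. The gap of polymerase III to polymerase II ran from -0.55 to -0.01, with -0.33 between the sh-ANP32B replicates, and after GC correction from -0.46 to -0.071, with -0.098 between them. The median of polymerase I was -0.44 without sh-ANP32B replicate 2. That of polymerase III was -0.50 without replicate 1 and -0.19 without replicate 2, and that of the shared genes -0.0016 and -0.41. The median of polymerase II was -0.032 without sh-ANP32B replicate 1, -0.14 without replicate 2, and -0.013 without NC replicate 1. No p was computed for these medians, since genes of the same cells are not replicates. In bulk RNA, fewer cells of a type and less RNA per cell cannot be told apart.

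**Figure D3:**
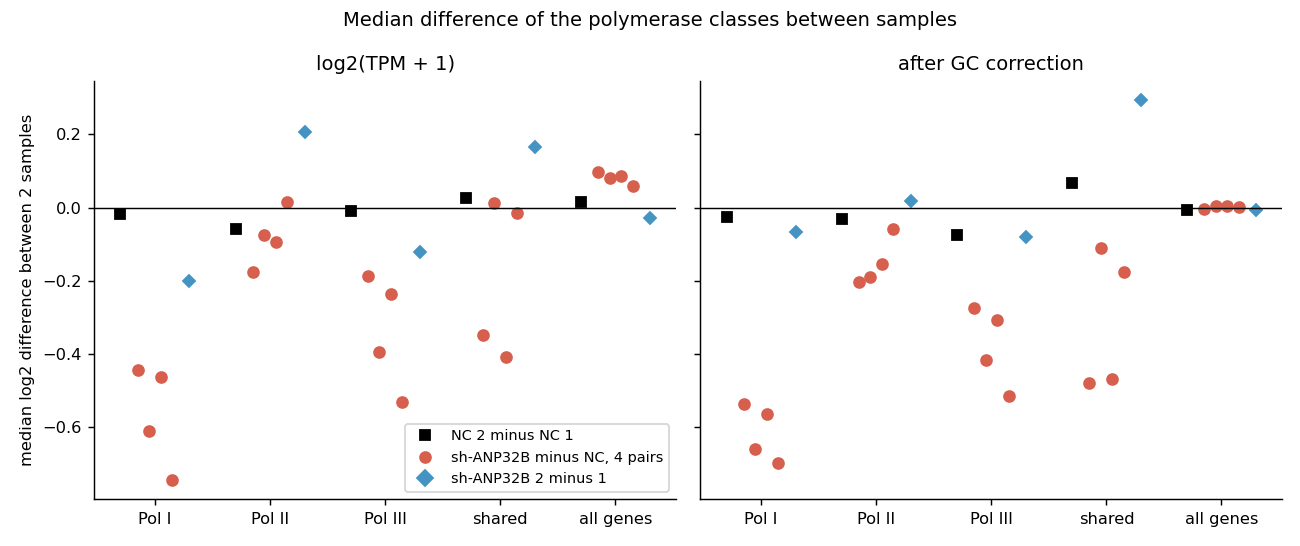
Median log2 difference over the genes of each polymerase class and over all genes, for the 4 pairs of sh-ANP32B minus NC (circles), the NC replicates (square) and the sh-ANP32B replicates (diamond), before (left) and after (right) GC correction. The polymerase I circles lie between -0.74 and -0.44 before correction and between -0.70 and -0.54 after it, and those of polymerase II between -0.18 and 0.01 and between -0.20 and -0.06.

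The sh-ANP32B replicates differed with the GC content of the transcripts, and the members shared in this. Across the 34 genes the log2 difference of sh-ANP32B replicate 2 to replicate 1 had a Spearman rho of 0.583 with the GC content of the longest transcript, where all genes had 0.577. Between the NC replicates rho was -0.454 in the members and -0.206 in all genes. These correlations are across genes of the same libraries and describe the libraries. A gap of over 0.5 between the sh-ANP32B replicates was found in 7 genes (POLR1G, POLR1H, POLR2E, POLR2F, POLR2J2, POLR2L and POLR3F) and between the NC replicates in 0. The samples also differed in the share of TPM from 37 mitochondrial genes, which was 12.9% and 13.1% in NC and 11.4% and 8.43% in sh-ANP32B, replicate 2 being lowest. Without those genes the medians of polymerases I, II and III were -0.72, -0.13 and -0.33. The GC content was lower in polymerase I (median 48.3%) and polymerase III (46.5%) than in polymerase II (50.5%) and the shared genes (57.0%).

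**Figure D4:**
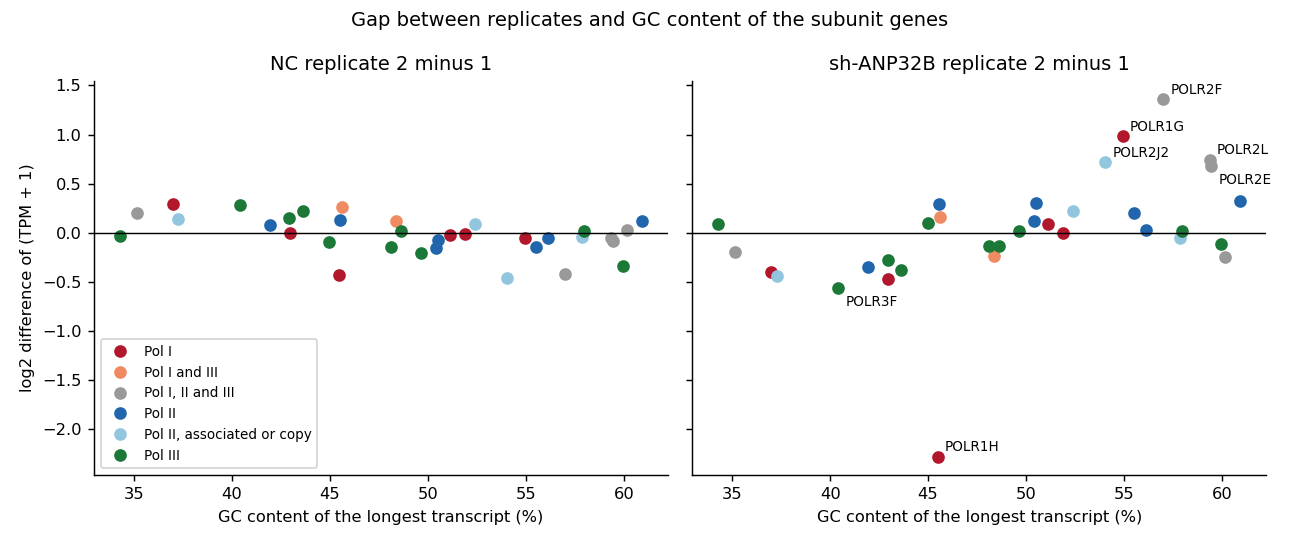
Log2 difference between the replicates of NC (left) and of sh-ANP32B (right) for each subunit gene against the GC content of its longest transcript in percent, with genes named where the difference is over 0.5. Replicate 2 of sh-ANP32B lies above replicate 1 in 7 of 10 genes with a GC content of 55% or more and below it in 8 of 10 genes under 45%.

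After a correction for GC content in each sample, limma called 9 of 34 subunit genes lower (26.5%, against 8.65% of all genes) and 1 higher (POLR3D, against 7.92%), at an adjusted p under 0.05. Of the lower genes 4 were of polymerase I (POLR1A, POLR1B, POLR1E and POLR1F), 4 of polymerase III, POLR3A, POLR3G and POLR3GL among them, and 1 was the shared POLR2K, while 0 were particular to polymerase II, where POLR2D had an adjusted p of 0.0564. POLR1E had the lowest adjusted p of these, 0.00907, with a log2 fold change of -0.75. The correction also moved the median of all genes from 0.08 to 0.00, and the medians of polymerases I, II and III and of the shared genes were -0.71, -0.16, -0.36 and -0.27. With the replicate number as a block besides, POLR2D of polymerase II was called lower (limma adjusted p 0.0471), while POLR1A (0.0817), POLR3A (0.0894), POLR3G (0.0522) and POLR3D (0.0689) were not called. The part of GC content in the result without the correction was not tested.

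The factors that work with each polymerase were counted in 5 lists, which were chosen with earlier results of these data known. The list for polymerase I initiation and ribosomal DNA had 13 tested genes and a median log2 fold change of -0.22. At an adjusted p under 0.05 limma called 2 lower and 0 higher, against 1.18% and 2.14% of all genes. At an unadjusted p under 0.05 it called 5 lower and 1 higher, against 8.72% and 15% of all genes. The higher gene was BAZ2A (log2 fold change 0.41, limma adjusted p 0.125), without overlap between groups. NOLC1, a nucleolar phosphoprotein that binds polymerase I, had 137.1 and 136.2 TPM in NC against 71.6 and 71.6 TPM in sh-ANP32B (log2 fold change -0.92, limma adjusted p 0.0323). TCOF1, which encodes treacle, a nucleolar scaffold of polymerase I, had 42.4 and 44.9 TPM in NC against 23.3 and 25.7 TPM in sh-ANP32B (log2 fold change -0.81, limma adjusted p 0.0455). The groups did not overlap in either gene. UBTF and RRN3, named for their role after their values were seen, are the factors that open ribosomal DNA and recruit polymerase I. They had overlapping groups and log2 fold changes of -0.22 and 0.26. TAF1A, TAF1B, TAF1C and TAF1D of the same list, also named after their values were seen, had -0.05, -0.05, 0.19 and 0.01. Of these only TAF1C had groups without overlap, with sh-ANP32B higher. After GC correction UBTF had -0.35 and RRN3 0.26 (limma adjusted p 0.0534 and 0.216), and TAF1C had -0.03. Limma then called 5 of the 13 genes of this list lower and 0 higher, against 8.65% and 7.92% of all genes.

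In the other 4 lists no gene passed an adjusted p of 0.05 in limma. Of 17 polymerase III factors 0 were lower and 2 higher at an unadjusted p under 0.05 (median log2 fold change 0.06), and of 32 polymerase II general transcription factors 2 were lower and 0 higher (median -0.07). Of 32 factors of polymerase II pausing, elongation and tail phosphorylation 1 was lower and 4 higher (median 0.10), and of 17 assembly and import factors 4 were lower and 0 higher (median -0.14). Of all genes 8.72% were lower and 15% higher at that threshold, so no share of higher genes in these lists was above that of all genes. Among these 4 lists, the share of lower genes was above that of all genes in the assembly and import list only. In that list 9 of 17 genes were lower without overlap between groups and 2 were higher, against 21.4% and 33.2% of all genes. By the same measure 5 of 17 polymerase III factors were lower and 3 higher. Of the general transcription factors 7 of 32 were lower and 3 higher, and of the pausing and elongation factors 8 of 32 and 9. POLRMT, the polymerase of mitochondria, had 53.9 and 53.0 TPM in NC against 54.6 and 70.3 TPM in sh-ANP32B (log2 fold change 0.21, 95% interval -0.18 to 0.60).

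**Figure D5:**
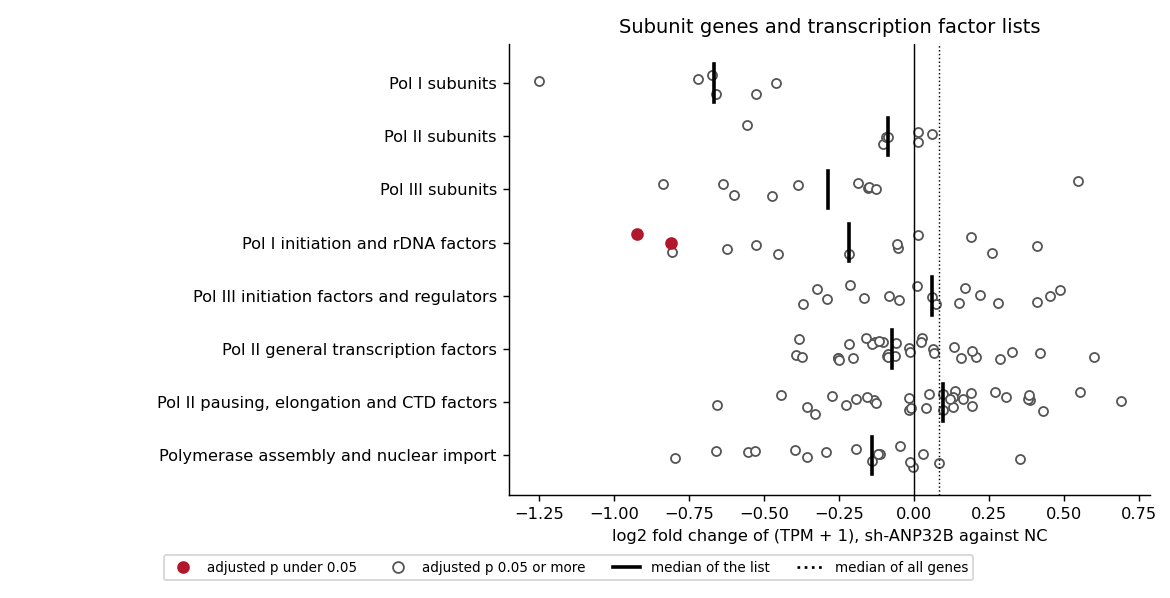
Log2 fold change of (TPM + 1), sh-ANP32B against NC, of the genes of each polymerase and of the 5 factor lists (points, spread vertically for legibility), with the median of each as a bar and that of all genes as a dotted line. Filled points have an adjusted p under 0.05, and these are NOLC1 and TCOF1.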

How the data were processed

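RNA was sequenced from 4 Kasumi-1 samples. Per the labels and the methods of the study, reads were aligned to hg38 with HISAT2 2.0.5. The authors deposited 1 table of TPM values, with decimals in columns that sum to between 997812 and 998314. The program, annotation and filters behind them are not given in the sources used here. TPM keeps no depth, so the depth of the samples is unknown and no counting interval was computed. The count model used by the authors was not run, since TPM are no counts.

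Positions and GC content of the longest transcript came from GENCODE v44. Symbols came from it or, where it gave none, from a further list of gene names, and 16986 of 18567 IDs had a symbol. Genes reaching 1 TPM in 2 or more samples were converted to log2(TPM + 1) and compared by limma 3.58.1 (R 4.3.3) with an abundance trend, two-sided, with Benjamini-Hochberg adjustment over 16817 genes. Fold changes on this scale understate the change of low genes. GC correction subtracted, in each sample, a loess fit (span 0.3) of the deviation from the gene's mean on GC content, over 15427 genes. All 34 members had a GC value. The values of 1 member, which is in the counts, medians and sums, are not reported here. The members, classes and factor lists were chosen with earlier results of these data known.

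Values in every sample were given for members with an adjusted p under 0.05, the largest rise and fall of each class, the catalytic pairs, POLR3G, POLR3GL and the POLR2J copies, and here for most others. From the factor lists, genes with an adjusted p under 0.05 were named, at most 4 in each direction. UBTF, RRN3, BAZ2A and TAF1A to TAF1D were named besides. On simulated data, in which only a small set of genes was changed, the fit recovered 45% of 4-fold and 3.7% of 2-fold changes at an adjusted p under 0.05. Most 2-fold changes were thus missed there. The adjustment depends on how many genes differ, so these rates need not hold for the real samples. Other pseudocounts, filters, scalings, variance models, a replicate block and leaving out each sample were tried. Scripts used Python 3.11.15, numpy 2.4.6, pandas 2.3.3, scipy 1.17.1 and matplotlib 3.10.9.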

Additional observations from a re-analysis of the deposited data

How the results depend on the processing

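Of the subunit genes 0 passed an adjusted p of 0.05 as reported, in either direction. This count was 9 lower and 1 higher with GC correction, 1 lower with the replicate block (POLR1H) and 7 lower with the replicate block and GC correction. It was 0 in each direction with other pseudocounts, filters and scalings. Without the abundance trend it was 0 as well, but that fit called 0 of all 16817 genes. The 0 of the members there, and that of the factor lists below, was therefore fixed and describes the fit only. Without each replicate it ranged from 0 to 9 lower and from 0 to 1 higher, and the lone sample of a group is then assumed to vary like the other group. Of the 110 genes tested in the 5 factor lists 2 were called lower and 0 higher, and the count was 13 lower and 1 higher with GC correction, 5 lower with the replicate block, 10 lower with both, 0 lower without the trend, and without each replicate from 0 to 16 lower and from 0 to 11 higher. Of all genes 8.65% were lower and 7.92% higher with GC correction, and 8.76% were called with the block and 12.01% with both, so the list counts stood below the rate over all genes in the block fits. The cause of these shifts was not tested.

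The median of the shared genes, -0.12 as reported, was -0.21 with median-of-ratios scaling, -0.18 with upper-quartile scaling and quantile normalization, and -0.27 with GC correction. The median of polymerase II moved from -0.09 to -0.17 with median-of-ratios scaling, -0.15 with upper-quartile scaling, -0.15 with quantile normalization, -0.16 with GC correction and -0.16 with the replicate block and GC correction. These settings shift all genes. The median of all genes moved from 0.083 to 0.0054 with median-of-ratios scaling and 0.027 with upper-quartile scaling. It was -0.0081 with quantile normalization and 0.0030 with GC correction. Without each replicate the medians ranged from -0.68 to -0.44 for polymerase I, from -0.14 to -0.013 for polymerase II, from -0.50 to -0.19 for polymerase III, from -0.41 to -0.0016 for the shared genes and from -0.65 to -0.30 for polymerase I minus II. The share of POLR3G differed by -3.36 percentage points, and by -4.54 to -2.18 without each replicate.

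Under median-of-ratios scaling the log2 fold changes of POLR2B, POLR2G and POLR2J were -0.027, -0.075 and -0.075, under upper-quartile scaling -0.0012, -0.050 and -0.050, and under quantile normalization -0.020, -0.068 and -0.064. Without mitochondrial transcripts those of POLR2G and POLR2J were -0.037 and -0.037. With GC correction, with or without the replicate block, POLR2G was -0.056, POLR2H -0.085 and POLR2J -0.13. Leaving out each replicate turned 12 genes, with ranges of -0.14 to 0.0999 for POLR1D, -0.11 to 0.24 for POLR2B, -0.41 to 0.27 for POLR2E, -1.26 to 0.11 for POLR2F, -0.14 to 0.17 for POLR2G, -0.0016 to 0.24 for POLR2H, -0.25 to 0.076 for POLR2I, -0.090 to 0.12 for POLR2J, -0.63 to 0.088 for POLR2J2, -0.49 to 0.25 for POLR2L, -0.37 to 0.065 for POLR2M and -0.46 to 0.094 for POLR3F. POLR1H had no value with a filter of 1 TPM in all 4 samples. No other subunit gene changed sign under the alternatives run.

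Equal replicate numbers are not stated to mark a shared batch, and the deviations of same-numbered samples did not go together (Pearson r -0.0925 across genes), so the block is given as an alternative only.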
